A study of Mus musculus with 2 samples.

Results

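Open chromatin at the promoters of long noncoding RNA genes that lie away from protein-coding promoters was examined in the midbrain of newborn mice. DNase-seq was used, an assay in which nuclei are cut with the nuclease DNase I and the ends of the released fragments are sequenced, so that DNA free of nucleosomes is read out as peaks. The tissue came from mice of strain B6NCrl at postnatal day 0, with males and females pooled, and no genotype or treatment was given for this single group of 2 biological replicates. Both replicates trace to the same pooled donor entry, and the labels do not say that the animals differed, so the spread between the libraries may be technical. The labels name a crosslinking protocol for nuclei, written for cultured cells. A merged region was counted if both libraries had a peak in it, if its midpoint lay within 500 bp of an annotated transcription start site (TSS) of a lincRNA, antisense, processed transcript or bidirectional promoter lncRNA gene of GENCODE M21, and if that midpoint was over 2000 bp from every protein-coding TSS. There were 1238 such regions among 74833 regions with a peak in both libraries (1.65%), and they served 1012 noncoding genes.

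Long noncoding RNAs are transcribed by RNA polymerase II, and many are spliced like messenger RNAs, but they carry no long reading frame. Some act in the nucleus as RNAs, some are known mainly as precursors from which microRNAs or small nucleolar RNAs are cut, and for many no function is known. Many of them start beside a coding gene and share its promoter, where an open site cannot be assigned to either gene. The regions described here are free of that overlap in the annotation used. An open promoter shows access to the DNA and does not measure the RNA made from it. In tissue made of many cell types, a weak peak in all cells and a strong peak in a few cannot be told apart.

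The peak lists held 228203 and 122593 usable peaks for replicates 1 and 2, each 150 bp wide, with a deposited whole-number signal whose median was 44 and 18. The signals were not scaled between the libraries, so each value below is given by replicate and ranked only within its own list. Sequencing depth is unknown because no read totals were given. Of 8 midbrain marker genes, En1, En2 and Otx2 had a promoter region with peaks in both libraries, whereas Pax7, Lmx1b, Th, Nr4a2 and Gata3 did not, and the same was found for 0 of 7 genes of other brain regions or organs.

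The following member regions are printed because they are the strongest of all and the leading ones of the gene groups described below. Each is the whole region on the strand of its gene, read 5′ to 3′ from the RefSeq copy of GRCm38.p6 (mm10), and capitals mark the dinucleotide CpG.
1700096K18Rik: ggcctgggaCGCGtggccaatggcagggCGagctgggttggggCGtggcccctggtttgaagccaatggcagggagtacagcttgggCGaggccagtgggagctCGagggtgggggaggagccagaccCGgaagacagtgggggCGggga
Malat1: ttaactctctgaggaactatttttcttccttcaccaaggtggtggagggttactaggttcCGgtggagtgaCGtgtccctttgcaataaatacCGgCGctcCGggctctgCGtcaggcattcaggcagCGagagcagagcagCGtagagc
1700020I14Rik: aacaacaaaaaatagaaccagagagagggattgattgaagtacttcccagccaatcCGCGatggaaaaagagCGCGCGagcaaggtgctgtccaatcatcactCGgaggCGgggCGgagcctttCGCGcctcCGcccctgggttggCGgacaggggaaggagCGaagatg
Zfhx2os: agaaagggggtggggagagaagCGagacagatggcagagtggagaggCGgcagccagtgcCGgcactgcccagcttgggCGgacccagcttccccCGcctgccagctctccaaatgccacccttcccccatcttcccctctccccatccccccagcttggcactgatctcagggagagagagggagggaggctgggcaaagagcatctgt
Snhg8: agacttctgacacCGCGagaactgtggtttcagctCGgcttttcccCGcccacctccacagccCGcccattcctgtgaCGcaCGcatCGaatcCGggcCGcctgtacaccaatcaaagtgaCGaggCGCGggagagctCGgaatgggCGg
Dleu2: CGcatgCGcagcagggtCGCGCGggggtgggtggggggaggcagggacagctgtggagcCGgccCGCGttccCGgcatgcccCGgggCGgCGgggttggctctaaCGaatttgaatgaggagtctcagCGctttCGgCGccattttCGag
Nespas: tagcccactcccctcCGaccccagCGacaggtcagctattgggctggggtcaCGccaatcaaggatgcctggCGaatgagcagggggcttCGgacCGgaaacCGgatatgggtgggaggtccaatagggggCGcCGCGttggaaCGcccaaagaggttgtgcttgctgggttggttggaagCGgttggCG
Hoxd3os1: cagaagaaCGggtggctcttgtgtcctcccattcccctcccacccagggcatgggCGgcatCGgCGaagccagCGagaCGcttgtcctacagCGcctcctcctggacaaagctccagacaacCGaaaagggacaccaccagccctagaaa
The regions lie at chr5:25529676-25529825 (1700096K18Rik, plus strand), chr19:5802636-5802785 (Malat1, minus), chr2:119594176-119594345 (1700020I14Rik, plus), chr14:55053676-55053885 (Zfhx2os, plus), chr3:123508416-123508565 (Snhg8, minus), chr14:61648776-61648925 (Dleu2, minus), chr2:174295396-174295585 (Nespas, minus) and chr2:74715876-74716025 (Hoxd3os1, minus). Those of Nespas and Hoxd3os1 lie inside coding genes on the opposite strand, Gnas for Nespas, and Hoxd3 and Hoxd4 for Hoxd3os1. The other 6 are outside coding genes. The Dleu2 region holds 17 CpGs and the Snhg8 region 15, whereas the longer Zfhx2os region holds 5, so strong members were found with dense and with sparse CpGs.

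The next sequences are mature microRNAs encoded within the span, and on the strand, of genes whose promoters are members. They were taken from the RefSeq table for GRCm38.p6. In it, 45 of the 51 microRNA genes with a Mir symbol inside member genes were matched by symbol. Further microRNA gene models inside member genes have no Mir symbol and were not looked up. Capitals mark the seed, bases 2 to 8, with which a microRNA pairs to its targets.
let-7a-5p: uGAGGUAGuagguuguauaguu
let-7b-5p: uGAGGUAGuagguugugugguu
let-7c-5p: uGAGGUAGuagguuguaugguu
let-7d-5p: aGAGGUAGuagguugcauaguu
let-7f-5p: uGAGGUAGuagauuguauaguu
miR-9-5p: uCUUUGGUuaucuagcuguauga
miR-99a-5p: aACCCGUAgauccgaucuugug
miR-100-5p: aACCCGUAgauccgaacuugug
miR-125b-5p: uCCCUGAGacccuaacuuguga
miR-15a-5p: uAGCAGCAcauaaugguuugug
miR-16-5p: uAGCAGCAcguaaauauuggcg
miR-181a-5p: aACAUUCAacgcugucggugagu
miR-181b-5p: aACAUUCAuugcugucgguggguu
miR-132-3p: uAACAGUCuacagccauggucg
miR-212-3p: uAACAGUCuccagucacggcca
miR-29b-3p: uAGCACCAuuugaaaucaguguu
miR-29c-3p: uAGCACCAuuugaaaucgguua
miR-137-3p: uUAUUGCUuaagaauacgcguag
The 5 let-7 sequences share the seed GAGGUAG. The other shared seeds in this group are ACCCGUA of miR-99a and miR-100, AGCAGCA of miR-15a and miR-16, ACAUUCA of miR-181a and miR-181b, AACAGUC of miR-132 and miR-212, and AGCACCA of miR-29b and miR-29c.

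Few noncoding genes away from coding promoters were open in newborn midbrain. Of 7678 such genes, 1009 had a member region, or 13.1% (95% Wilson interval 12.4 to 13.9, counting error only). Among 21938 protein-coding genes, 60.6% had a replicated region within 500 bp of a TSS (59.9 to 61.2), and among 2115 noncoding genes with every TSS within 2000 bp of a coding TSS the share was 59.0% (56.9 to 61.1). The intervals of the first share and of the other 2 do not overlap. Noncoding genes beside a coding promoter were thus open about as often as coding genes, and their intervals overlap. The measures are unlike, because the first share counts member regions only and the other 2 count any replicated region. Beside a coding promoter, that region may be the coding gene's own. Eligible genes such as Gas5 and Snhg1, with a replicated region near a coding TSS alone, are not in the 13.1%.

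The gene types differed. Processed transcripts were open in 139 of 500 genes (27.8%, 24.1 to 31.9), lincRNAs in 657 of 5408 (12.1%, 11.3 to 13.0) and antisense genes in 211 of 1760 (12%, 10.6 to 13.6). Bidirectional promoter lncRNAs had 2 open genes of 10. Counted as regions by the type of the nearest gene, lincRNAs had 783 members, antisense genes 246, processed transcripts 207 and bidirectional promoter lncRNAs 2. The support for the transcript in the annotation moved with the open share. Genes with a transcript at support level 1, the best grade, were open in 17.3% of 3078 cases, those whose best level was 5 in 6.44% of 1522, and those with no level given in 13.2% of 1568. Coding genes at level 1 were open in 69.7%, against the 17.3% of noncoding genes at that level. The part that annotation support has in the gap between the gene classes was not tested.

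Each library alone gave a different count. A promoter peak was present in both libraries at 1064 of the 7678 noncoding genes, in replicate 1 alone at 966, in replicate 2 alone at 95 and in neither at 5553 (72.3%). Peaks found in replicate 1 alone had a median signal of 39, below that list's median of 44, and those found in replicate 2 alone had a median of 11, below its list median of 18. Some were strong. In replicate 1 alone the highest signals were 127 at Gm15050, an antisense gene on chromosome 6, 117 at Gm29340, 116 at 2210409D07Rik, 107 at Mirt1 and 106 at AC102333.1. In replicate 2 alone the highest were 31 at St8sia3os, 24 at Gm12126, 24 at Gm26820, 20 at D130079A08Rik and 20 at Gm30371. None of these 10 genes had a member region at another TSS. Replicate 1 also had more peaks in all, and the part this has in the counts was not tested.

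Signal at the members lay between that of coding promoters and that of distal regions, which are over 500 bp from any TSS. The median of the 1238 members was 79 in replicate 1, with quartiles at 57 and 101. In replicate 2 it was 27, with quartiles at 19 and 41. At 20034 coding promoter regions the medians were 100 and 40, and at 52518 distal regions 67 and 22. The 95% intervals of the member medians, 77 to 81 and 26 to 29, contain neither neighbour. Ranked among all peaks of its list, the median member stood at percentile 83.9 in replicate 1 and 72.0 in replicate 2. These ranks describe regions that had a peak in both libraries by the rule.

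The libraries ranked the members alike but not identically. Spearman's correlation of the 2 signals was 0.784 over 1238 members, beside 0.911 at coding promoters and 0.660 at distal regions, and the regions of a library share its depth and base composition. The lowest member signals were 18 and 6 and the highest 147 and 92. As did every coding promoter and distal region, each member overlapped a hotspot, a wider interval of raised cutting, in each library. That hotspot carried the strongest q class at 81.5% of members in replicate 1 and 47.3% in replicate 2, against 91.2% and 66.0% for coding promoters. Hotspots were made from the same reads as the peaks and are not independent of them.

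**Figure D1:**
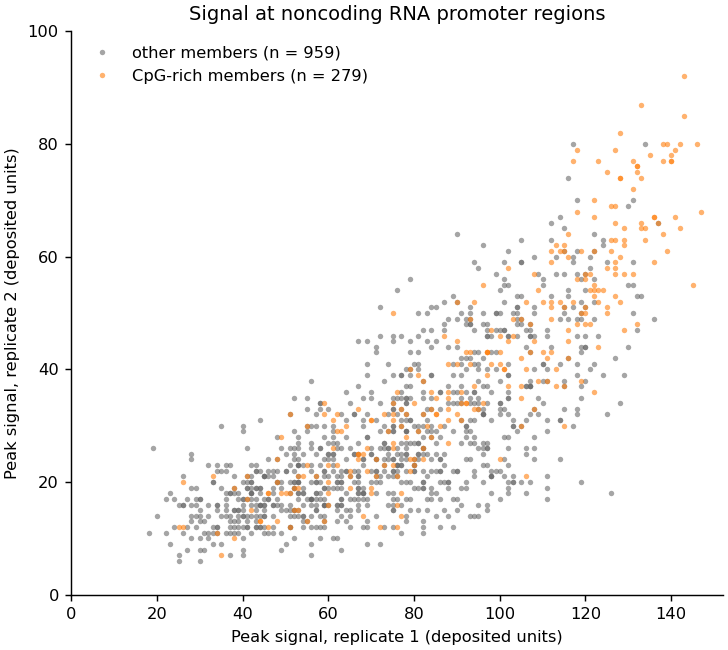
Deposited peak signal of the 1238 member regions in replicate 1 (horizontal axis) and replicate 2 (vertical axis), 1 point a region, with 279 CpG-rich members in orange and 959 others in grey. Both groups span most of the range, and the CpG-rich members have medians of 100 and 40 against 75 and 24 for the others.

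CpG content separated the noncoding promoters from coding ones. CpG-rich means here an observed to expected CpG ratio over 0.6 and G+C over 50% in the 300 bp around the midpoint, the sequence type of CpG islands. It was met by 279 members (22.5%, 20.3 to 24.9), by 68.1% of coding promoter regions and by 6.61% of distal regions. CpG-rich members had median signals of 100 and 40, below the 112 and 50 of CpG-rich coding promoters. The 959 other members had 75 and 24, close to the 74 and 25 of other coding promoters. Their median intervals overlap in replicate 1 (73 to 78 against 73 to 75) and meet in replicate 2 (23 to 25 against 25 to 26). The difference in median signal between noncoding and coding promoters was thus seen within the CpG-rich class and was not seen in the other class. In the other class the upper quartiles were 95 and 36 at members and 100.5 and 39 at coding promoters. The lower quartiles were 53.5 and 17 against 51 and 18. CpG-rich members had a median CpG ratio of 0.80 and G+C of 62.0%, against 0.85 and 66.0% at CpG-rich coding promoters. The part of this in the difference was not tested.

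**Figure D2:**
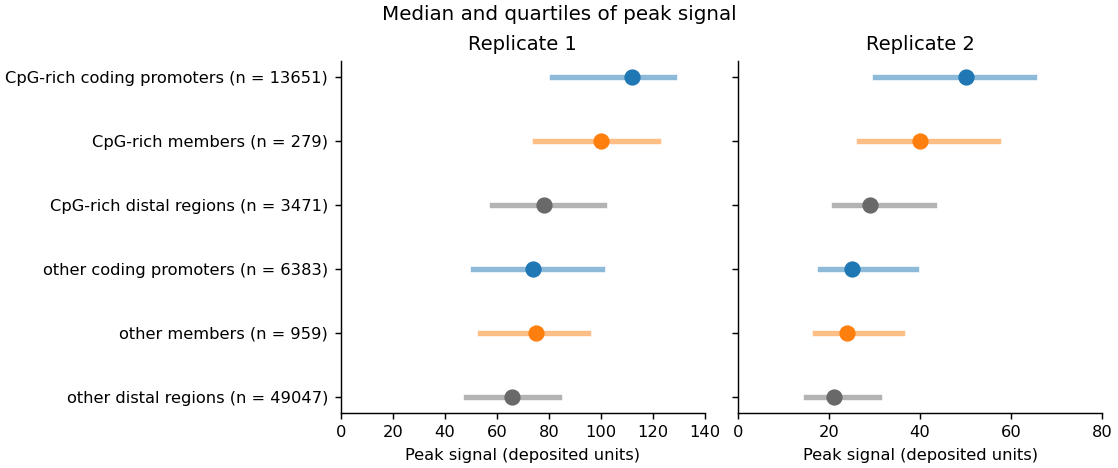
Median (points) and quartiles (bars) of the deposited peak signal in each replicate for CpG-rich and other regions at coding promoters (blue), at members (orange) and at distal sites (grey). CpG-rich members (100 and 40) lie between CpG-rich coding promoters (112 and 50) and CpG-rich distal regions (78 and 29), while the medians of other members and other coding promoters nearly coincide.

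The share of open genes rose with CpG content in both gene classes. Here each gene was represented by its annotated 5′ end, 7490 noncoding and 21938 coding, and the CpG ratio was taken from the genome around that end whether or not a peak was there. At a ratio up to 0.2, 5.41% of noncoding genes (4.70 to 6.22) and 4.69% of coding genes (4.13 to 5.32) were open, and the intervals overlap. From 0.2 to 0.4 the shares were 10.6% and 19.6%. From 0.4 to 0.6 they were 22.9% and 55.7%, and from 0.6 to 0.8 they were 38.0% and 81.5%. Over 0.8 they were 60.4% (53.4 to 67) and 92.9% (92.2 to 93.5). In the 4 classes above 0.2 the noncoding share was lower and the intervals did not overlap. Only 2.63% of noncoding 5′ ends were in the top class, against 31.5% of coding ones, while 45.4% and 22.3% were in the lowest.

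**Figure D3:**
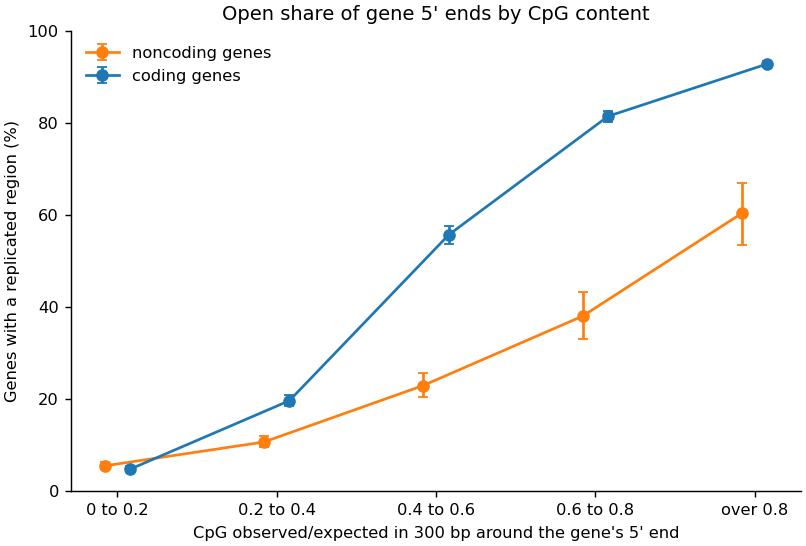
Percentage of genes with a replicated region at the annotated 5′ end (vertical axis) by observed to expected CpG ratio in 300 bp around that end (horizontal axis), for noncoding genes (orange) and coding genes (blue), with 95% Wilson intervals as bars. The classes start together at 5.41% and 4.69% and end apart at 60.4% and 92.9%.

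By the rule, every member midpoint lay within 500 bp of an annotated noncoding start. The median midpoint was 37 bp upstream of the nearest noncoding TSS (position -37), 62.2% of midpoints were upstream, and 44.4% were within 100 bp. Coding promoter regions, taken in a window of the same size, lay closer to their starts, with a median position of -25 and 58.5% within 100 bp. Both were measured to the nearest start of any transcript, and the part that the number of annotated starts has in this was not tested. A single peak of each library made up the region at 90.5% of members. The share was 94.4% at coding promoter regions, 92.0% at distal regions and 92.5% over all regions with a peak in both libraries. Members had a median width of 170 bp, as did each of those sets. The widest were 710 bp at 4930428N03Rik (chr14:24618356-24619065, signals 95 and 34), and then regions at 3110039I08Rik (chr9:41326556-41327105, 77 and 16), Gm28055 (chr1:51697296-51697825, 55 and 33), AC132404.2 (chr17:27139216-27139685, 56 and 17) and Gm39244 (chr8:108536296-108536725, 62 and 21). In none of these 5 did width go with a signal above the members' upper quartiles of 101 and 41.

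Most members lay outside coding genes. There were 1022 outside (82.6%), 194 inside a coding gene on the opposite strand, 19 inside one on the same strand and 3 inside coding genes on both strands. Members inside a coding gene had median signals of 75 and 24 and were CpG-rich in 17.1%, against 80 and 28 and 23.7% for those outside. At 42 members noncoding TSSs of both strands lay within the window, and these were CpG-rich in 45.2% (31.2 to 60.1), with medians of 94 and 33.5. The other 1196 were CpG-rich in 21.7% (19.5 to 24.2).

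The nearest coding TSS was a median of 32720 bp away. Members over 2000 and up to 10000 bp from it numbered 288, and 28.1% of them were CpG-rich (23.2 to 33.6). Of the 123 members over 200000 bp away, 5.69% were CpG-rich (2.78 to 11.3), so the intervals do not overlap. Median signals changed less, from 82 and 30 in the near class to 76 and 24 in the far class. The farthest members were 2 regions of C130073E24Rik on chromosome 8, 2073310 and 2072640 bp from a coding TSS, with signals of 41 and 21 at the first and 70 and 35 at the second. Gm29318 on chromosome 13 followed at 1085934 bp, with 75 and 15.

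No coding gene was the nearest neighbour of many members. The highest counts, which include several regions of the same noncoding gene, were small. Sorl1, which encodes a sorting receptor of neurons, was the nearest coding gene of 10 members, of which 6 were regions of 3110039I08Rik. Mef2c, which encodes a transcription factor of neurons and muscle, was nearest to 9, of which 8 were regions of C130071C03Rik. Gm26897 followed with 8, and Ndn and Zmiz1 with 6 each. The mean count of nearby distal regions was also higher for members, although the median was 1 in each set compared. The mean number of distal regions within 10 kb was 1.54 for members, 1.02 for coding promoter regions and 1.13 for distal regions themselves, and 37.9%, 43.2% and 43.3% had none. Members at hosts of small RNAs had a mean of 3.34, and the other members 1.33. In the CpG-rich class, defined above, the mean was 1.69 for members and 1.92 for distal regions, and in the other class 1.49 and 1.07.

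Nuclear RNAs and RNAs of the X inactivation centre were mostly open, 7 of 8 eligible genes. This list, like those below, was chosen with earlier results of these data known, and its share stands beside 13.1% for all noncoding genes of the kind. Malat1, an abundant RNA of nuclear speckles, had signals of 118 and 70. Neat1, the scaffold of paraspeckles, had a region at chr19:5845876-5846025 with 127 and 58, whose midpoint is 473 bp upstream of its TSS and 328 bp downstream of that of Frmd8os, so the site is shared. Both stood above the members' upper quartiles in both libraries.

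Ftx, a noncoding gene of the X inactivation centre, had 4 regions, the strongest with 126 and 61. Jpx, an activator of Xist, had 112 and 43. Xist, the RNA that coats the inactive X chromosome, had 67 and 19 at its TSS and 28 and 14 at a second region at position -327. Firre, an X-linked RNA with a role in nuclear architecture, had 111 and 38 at the strongest of its 3 regions, and 2900097C17Rik had 100 and 41. Tsix, the antisense partner of Xist, had a promoter peak of 31 in replicate 1 and none in replicate 2. Xist was thus below the member medians, while Jpx and the strongest region of Ftx were above them, in a pool of both sexes. Ftx also had regions below both medians, with 34 and 11 and with 51 and 18.

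Neural lncRNAs were open in 11 of 15 eligible genes. The leading one, 1700020I14Rik, had signals of 127 and 79, both above percentile 97 of their lists. Meg3, an imprinted RNA of neurons, had 107 and 48. Rmst, an RNA of the developing midbrain that is known to work with SOX2, had 87 and 47 at its strongest region, chr10:92165036-92165285, and 4 weaker ones, of which the lowest had 34 and 16. Its nearest coding TSS, that of Nedd1, was 551317 bp away. Sox2ot, the transcript that contains Sox2 in an intron, had 3 regions with signals of 48, 44 and 40 in replicate 1 and 22, 22 and 17 in replicate 2, all below the member medians. The list's genes with no member region included Crnde, Dlx6os1 and Pantr2. Crnde was open at a start near a coding TSS (136 and 67), Pantr2 had a peak in replicate 1 alone (70), and Dlx6os1, from the Dlx5 and Dlx6 locus of forebrain interneurons, had none.

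Transcripts beside transcription factor genes, most of them named after that neighbour, were open in 3 of 10. Zfhx2os had 132 and 53, and A830082K12Rik, beside Nr2f1, had 65 and 22 at a region 2974 bp from a coding TSS and a stronger peak (129 and 63) nearer to that TSS, which is no member. Sox2ot was the third. Of the others, 9130024F11Rik had a peak of 62 in replicate 1 alone and Dlx1as a peak of 19 in replicate 2 alone. Of the 3 leading member regions, that of Zfhx2os was above the member medians in both libraries.

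Hosts of small nucleolar RNAs, which guide the chemical modification of ribosomal RNA, had strong and weak member regions. On the list 9 of 12 eligible genes were open. Snhg8 had 138 and 77, Snhg15 had 135 and 78, Snhg12 had 128 and 74, Dancr had 133 and 66, Snhg5 had 126 and 63 and Snhg6 had 131 and 57. All 6 were CpG-rich and stood at or above percentile 94.2 in both lists. Gas5 (135 and 66) and Snhg1 (144 and 76) counted as without a member region because their peaks lay near coding TSSs, and Snhg14, the long antisense transcript of Ube3a, had no promoter peak in either library. Over the whole annotation, 19 of 60 eligible genes with a small nucleolar or Cajal body RNA in their span were open (31.7%, 21.3 to 44.2), against 13.0% of the rest. At 16 of these 19 the strongest region was above both member medians (84.2%), as it was for 421 of the 987 genes nearest to a member (42.7%). The lowest were Gm10754 with 57 and 18 and AI506816 with 52 and 19. The RNA counted in AI506816 has the symbol Mir3096, and that in 2900076A07Rik the symbol Mir1839. Both genes count here by the type the annotation gives these RNAs.

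Hosts of microRNAs were open in 45 of 99 eligible genes (45.5%, 36.0 to 55.2), against 12.7% of the other 7579 (12 to 13.5). Some open hosts, such as Smkr-ps and Zswim6, hold only a microRNA gene model without a Mir symbol. Overlapping genes over the same microRNAs, such as 3110039I08Rik and Gm49317, count separately. The hosts differed in other ways too. They had a median of 2 annotated TSSs against 1, a median span of 23826 bp against 6840 bp, and a median CpG ratio of 0.38 against 0.22, and the part of these in the difference was not tested beyond a count at 5′ ends alone, which gave 45.3% and 11.9%. On the list of named hosts, 7 of 12 were open, and Mir155hg and Mir142hg, hosts of microRNAs known from immune and blood cells, had a peak of 38 in replicate 1 alone and no peak, respectively.

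All 3 loci of miR-9, a microRNA of neural progenitors and neurons whose sequence is printed above, had an open host promoter. The host of Mir9-1, Gm3764, had signals of 122 and 41. The host of Mir9-2, C130071C03Rik, had 8 member regions, the strongest at 120 and 44 and the weakest at 48 and 20. Mir9-3hg had 105 and 49. All 3 strongest regions were at or above both upper quartiles of the members. Hosts of miR-124, the most abundant microRNA of neurons, were open at 2 loci. Mir124a-1hg had 2 regions, with 96 and 55 at the higher ranked one, and Mir124-2hg had 118 and 46 at the strongest of 4 regions.

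The let-7 family, whose members restrain growth and rise as cells mature, had several open hosts. The host of let-7a, let-7d and let-7f on chromosome 13, 6720427I07Rik, had 138 and 80, among the 10 strongest members. Lncppara, with let-7b and let-7c inside it, had 118 and 32 at the strongest of 4 regions. Mir99ahg carries let-7c, miR-99a and miR-125b and had 7 regions, the strongest at 119 and 52. The related cluster of miR-100, let-7a and miR-125b lies in 3110039I08Rik, with 9 regions and a strongest one of 125 and 59, and in the overlapping gene Gm49317, with 105 and 48. Hosts of both clusters of the miR-99 and miR-125b kind were thus open, each from several starts.

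Other hosts carried microRNAs known in neurons. 1700016P03Rik, with miR-132 and miR-212, which respond to neuronal activity, had 92 and 34 at a CpG-rich region. Gm26871, with miR-137, had 85 and 32. Gm4258, with miR-181a and miR-181b, had 137 and 66 at a CpG ratio of 0.34. A second gene over miR-181b, A430106G13Rik, had a weak region of 36 and 22 at chr1:137966596-137966765, which covers the position of miR-181b-5p itself (chr1:137966650-137966673). A330023F24Rik, with miR-29b and miR-29c, had 4 regions, the strongest at 107 and 43. Dleu2, the host of miR-15a and miR-16, had 3 regions, of which the strongest (125 and 75) is printed above. Rmst and D030055H07Rik (79 and 31) carry the 2 copies of miR-135a, and Mir670hg (116 and 53) and Gm3294 (115 and 37) those of miR-129.

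Imprinted genes, expressed from the copy of a single parent, were open in 7 of 12 on the list. Jpx stands on that list too, although it is not known as an imprinted gene, so the count without it is smaller. Nespas had 127 and 57, Kcnq1ot1 had 131 and 50 and Airn had 88 and 20. All 3 regions lay inside a coding gene on the opposite strand, Gnas, Kcnq1 and Igf2r, which are themselves imprinted. A330076H08Rik had 97 and 23. H19, Mirg and Nctc1 had no promoter peak in either library. The peaks do not tell the parental copies apart.

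Noncoding genes of the Hox clusters, which are active in the hindbrain, spinal cord and trunk, were open in 1 of 9 (11.1%), near the 13.1% of all eligible noncoding genes. Hoxd3os1 had 104 and 50. Haglr had a peak of 54 and Halr1 one of 42 in replicate 1 alone, as did Hoxaas2 with 65 and Hoxb3os with 68, while Hotair had none in either library. Hotairm1, whose TSSs all lie within 2000 bp of a coding TSS, had a peak of 108 in replicate 1 alone. The strongest such peak of all, 127 at Gm15050, lies at chr6:52172616-52172765, between Hoxaas2 and Hoxaas3 in the Hoxa cluster. Most of these Hox peaks were seen in replicate 1 alone, and the same lean held over all 7678 eligible noncoding genes, with 966 in replicate 1 alone and 95 in replicate 2 alone. Hoxa2, a coding Hox gene of the hindbrain, likewise had a promoter peak in replicate 1 and none in replicate 2, and Hoxc8 had none in either. The part that the longer list of replicate 1 or the cells in the sample have in this was not tested. Of 7 genes known from other tissues, 1 was open (14.3%), a share also near the 13.1%. It was Bvht, named for its role in heart cells, with 56 and 14.

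**Figure D4:**
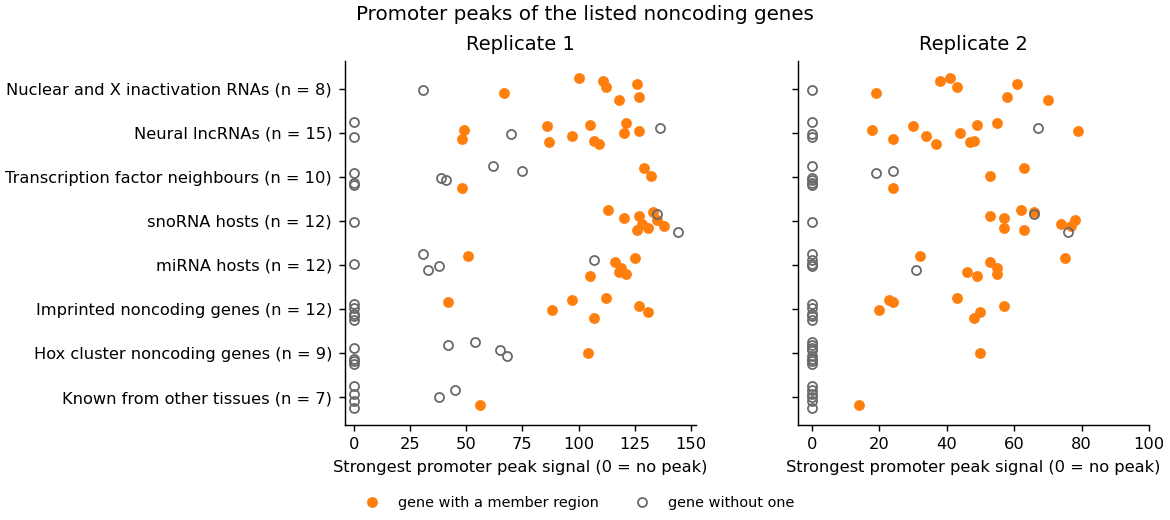
Strongest promoter peak signal of each eligible gene (1 point a gene) on the 8 lists, by replicate, with 0 for no peak, filled orange for genes with a member region and open grey for genes without. Of the 12 small nucleolar RNA hosts, Snhg14 is at 0 in both replicates and the others are at 113 or more in replicate 1 and 53 or more in replicate 2, while most Hox cluster genes are at 0 in replicate 2.

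The 10 strongest members were 1700096K18Rik (143 and 92), 4833417C18Rik (143 and 85), Gm10433 (146 and 80), AC132957.1 (142 and 80), 1810019N24Rik (141 and 79), Zswim6 (139 and 80), 2810410L24Rik (140 and 78), 6720427I07Rik (138 and 80), Gm13421 (140 and 77) and 1700028E10Rik (140 and 77). All 10 were CpG-rich. At least 2 of them may be coding promoters in another annotation. A RefSeq mRNA of Zswim6 started 137 bp from its region and one of Pdzd7 started 172 bp from that of AC132957.1. Over all members, a RefSeq mRNA started within 500 bp at 59 and within 2000 bp at 83 (6.70%), and those 83 were CpG-rich in 39.8% and had medians of 86 and 33. Without them, the other 1155 had medians of 78 and 26 and were CpG-rich in 21.3%.

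The 5 weakest members were Gm47039 (27 and 8), Gm33586 (18 and 11), 4930568A12Rik (23 and 9), Gm20528 (25 and 7) and Gm26905 (25 and 6). None was CpG-rich. Their midpoints lay 263 to 368 bp from the TSS on either side, so these 5 were poor in CpG and away from the annotated start.

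Some members ranked differently in the 2 lists. Gm13293 had 89 and 12, which is percentile 88.8 in replicate 1 and 26.0 in replicate 2. Gm47133 had 82 and 11, and Gm13684 had 72 and 9. In the other direction, A230006K03Rik had a region with 19 and 26, percentile 1.64 and 70.4. Gm32815 had 28 and 25, and a region of B230209E15Rik had 28 and 24. A230006K03Rik and B230209E15Rik lie near each other on chromosome 7, and Ndn is the nearest coding gene of both.

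Most genes had a single member region, 801 of 1012, while 172 had 2 and 28 had 3. The most were at 3110039I08Rik (9), C130071C03Rik (8), Mir99ahg (7), Lncpint (5) and Rmst (5). In Lncpint the signals ran from 41 to 86 in replicate 1 and from 13 to 30 in replicate 2. Regions of a gene share its annotation of starts and are not independent. Long genes with many starts have more chances of a region, and 4 of these 5 genes carry microRNAs.

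The short motifs in the members fell between those of coding promoters and distal regions in several cases. Each motif was searched on both strands in the 150 bp around the midpoint. The GC box GGGCGG, bound by SP factors, was in 17.3% of members, 45.4% of coding promoter regions and 6.97% of distal regions. The ETS motif CCGGAAG was in 4.28%, 9.82% and 1.18%. The cyclic AMP response element TGACGTCA, read by CREB in active neurons, was in 1.53%, 2.38% and 0.356%. Within the CpG-rich class the GC box was in 42.3% of members (36.6 to 48.2) and 57.1% of coding promoter regions (56.2 to 57.9), so the difference was smaller but the intervals still did not overlap.

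Some motifs were about as frequent at members as at distal regions, among them SOX and RFX, and others were not. The SOX motif ACAAAG was in 13.8% of members (12 to 15.8), 6.80% of coding promoter regions and 13.5% of distal regions. The RFX motif GTTGCCAT was in 3.80%, 1.22% and 3.56%. The E-box CAGCTG, a motif of neurogenic factors, was in 12.6%, 9.13% and 14.1%, and the TATA box TATAAA in 4.44%, 2.07% and 5.28%. The homeodomain core TAATTA was in 2.75%, 0.893% and 3.98%. The CCAAT box CCAAT was in 22.9%, 24.3% and 19.5%. Part of the CTCF core, AGGGGGC, was in 5.74% of members (4.57 to 7.17), below both coding promoter regions (11.1%) and distal regions (8.0%). The YY1 motif AAGATGGC was in 0.646%, 2.23% and 1.43%, and NRF1's GCATGCGC in 1.37%, 3.51% and 0.752%. The octamer ATGCAAAT was in 1.21%, 0.729% and 1.06%. The GC box and the CTCF part can share bases. In the regions printed above, those of 1700096K18Rik, 1700020I14Rik and Snhg8 hold both a CCAAT box and a GC box. These are letter matches, not binding sites, and they move with base composition.

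**Figure D5:**
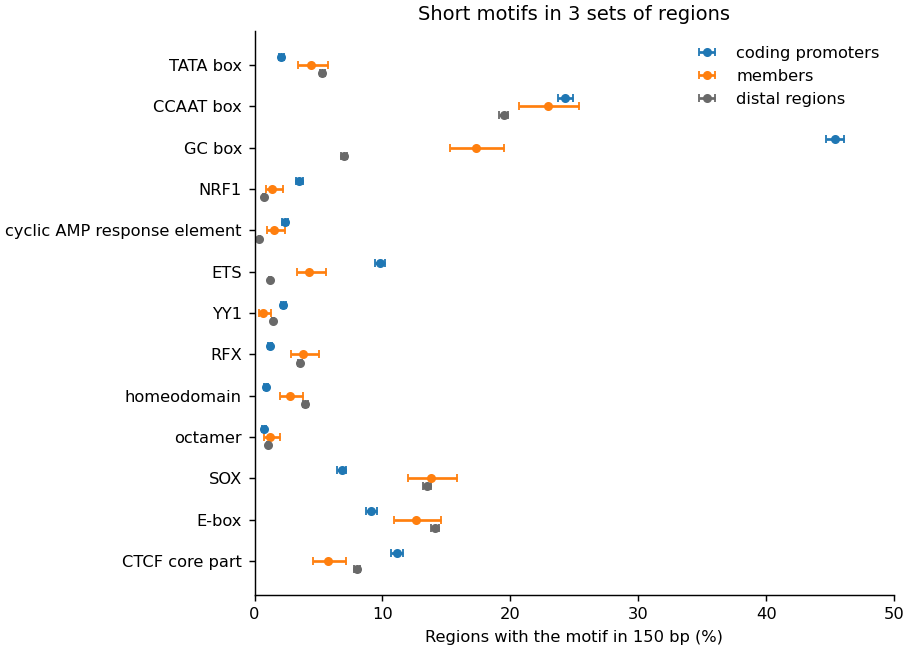
Percentage of regions that hold each of 13 motifs in 150 bp (horizontal axis), for coding promoters (blue), members (orange) and distal regions (grey), with 95% Wilson intervals as bars. Members lie between the other sets for the GC box (17.3% against 45.4% and 6.97%) and with distal regions for the SOX motif (13.8% and 13.5%).

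The limits of the definition ran through a continuous range. Just inside 500 bp were Gm15841 (midpoint at -500, 46 and 17), Gm16170 (-498, 60 and 16) and Gm11378 (-497, 71 and 31), and just outside were regions 501 bp from Gm33175 (93 and 21), 502 bp from 8430419K02Rik (99 and 18) and 502 bp from AC115789.2 (61 and 18). Just over 2000 bp from a coding TSS were Zmiz1os1 (2039 bp, 106 and 31), Gm26775 (2065 bp, 37 and 7) and A930019D19Rik (2104 bp, 74 and 25). Just under it were Gm15906 (1998 bp, 78 and 46), 2010320O07Rik (1988 bp, 100 and 21) and 9930014A18Rik (1979 bp, 111 and 40).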

How the data were processed

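DNase-seq peaks and hotspots of 2 libraries were used. Both lists of a library came from that replicate's filtered alignment, per the deposited notes. The aligner, the peak caller and their settings are not stated by the labels or notes used. The deposited files give each 150 bp peak a signal, whose definition is not given, and each hotspot a −log10 q value, in which 100 is the strongest class. The display score deposited with each hotspot was not used.

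Peaks on chromosomes 1 to 19, X and Y were kept, and repeated positions were dropped. Overlapping or touching peaks of both lists were merged, and the strongest peak gave a region its signal. Transcription start sites came from every transcript of GENCODE M21, and sequence from GRCm38.p6, the same assembly as mm10. Eligible genes had a start over 2000 bp from coding ones. A small RNA was hosted when it lay whole within the gene's span on its strand. Python 3.11.15, numpy 2.4.6 and pandas 2.3.3 were used, and the rule was tested on simulated peaks. With 1 group there is no contrast, so values are given as shares with 95% Wilson intervals or medians with order-statistic intervals, which cover counting error only.

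The members and the 8 gene lists were chosen with earlier results of these data known. Named were the 10 strongest and 5 weakest members by mean percentile, up to 6 genes of each list with a member region and the first 3 by symbol without one, the 5 farthest and the 5 widest, the 3 with the largest difference of percentile in each direction, the 3 nearest each limit, the 5 strongest genes of 1 library alone and the 5 with most regions. Xist, Tsix, other Hox genes and the microRNA and small nucleolar RNA hosts off the list were named after their values were seen. Of the alternatives, distance from RefSeq mRNA starts was added after seeing the data.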

Additional observations from a re-analysis of the deposited data

How the results depend on the processing

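No paired analysis was possible because the 2 libraries form a single group. The count of 1238 regions and of 1012 genes moved by over 1.5 times only where replicate 1 was used alone, and without 1 replicate each they ranged from 1666 to 2782 regions and from 1162 to 2034 genes. The open share (13.1%) was 10.4% at a TSS window of 250 bp and 16.6% at 1000 bp, 11.8% with peak pairs overlapping by 75 bp or more, 10.1% with peaks at or above each list's median, 12% with the replicate 1 list shortened to the length of the other, and 15% to 26.4% without 1 replicate each. The median signal of replicate 1 (79) was 84 and 76 at the 250 bp and 1000 bp windows, 89 with those stronger peaks, 83 with the shortened list and 53 without replicate 2. That of replicate 2 (27) was 25 at 1000 bp, 33 with those stronger peaks, 30 with the shortened list and 22 without replicate 1. The CpG-rich share (22.5%) was 19.6% at 1000 bp, 27.6% with gene 5′ ends only, 27.4% with those stronger peaks, 19.8% away from pseudogenes and small RNA genes too, 27.4% in a 150 bp window, 14.1% with a CpG ratio over 0.75, and 13.8% to 18.2% without 1 replicate each. Away from RefSeq mRNA starts, an alternative added after seeing the data, 1155 regions and 12.6% of genes were left. Touching peaks changed no count, and hotspots in place of peaks gave 1096 regions and 13.1% of genes. Depth is unknown, so an absent peak in replicate 2, which has fewer, does not show closed chromatin.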
